A study of Rattus norvegicus with 36 samples.

Results

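The genes described here code for the DNA replication machinery, and their messenger RNA was followed in cultured rat granulosa cells given HPTE, which is formed in the body from the pesticide methoxychlor and carries hydroxyl groups on both of its rings. The list held 43 genes named by their role, and it was drawn up with earlier results of these data known, so counts over it are descriptions and no independent evidence. Of these, 41 had a probe set that the platform's annotation assigns to 1 gene symbol, and Cdc6 and Gins2 had none and were not analysed here. Each gene was read from 1 probe set, that of highest mean log2 intensity over all arrays. These 41 were among 14217 genes with such a probe set, and 31042 probe sets were tested in all. A filter at a mean log2 intensity of 6 would have kept 38 of the 41, and no filter was used.

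Granulosa cells, the somatic cells that surround the oocyte in the follicle, came from immature Sprague-Dawley rats 21 to 27 days old. The cells attached for 24 h with 5% serum present. Treatment then lasted 48 h without serum, and androstenedione, which aromatase turns into estrogen, was present throughout it (0.1 µM per the series' design text). Each of 3 stimuli (none, called basal; FSH at 3 ng/ml; cAMP at 1 mM, in a form not given in the sources used here) was combined with HPTE at 0, 1, 5 and 10 µM. This gave 12 groups of 3 arrays, numbered 1 to 3, and 36 arrays in all. All groups shared the serum step and the androstenedione, so none is an untreated ovary. The labels do not say whether the 3 arrays of a group stand for different animals or for wells of 1 cell pool, so p-values measure the spread between these samples, part of which may be technical.

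DNA replication is prepared in G1, when the origin recognition complex, Cdc6 and Cdt1 load the MCM ring onto DNA. In S phase Cdc45 and the GINS complex join MCM to form the active helicase, primase and the DNA polymerases copy the strands, and the clamp Pcna holds the polymerases in place. Many of these genes are transcribed near the G1 to S transition under E2F factors, so their messenger RNA is commonly read as a mark of cells in cycle. In the follicle, granulosa cells proliferate under FSH and estradiol before they luteinise.

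To show what stands before these genes, promoters were read from the RefSeq table of build GRCr8, from 250 bases before to 50 bases after each start, and 37 of the 41 genes matched. The letters TTTCCCGC, TTTCGCGC, TTTGCCGC and TTTGGCGC, forms of the E2F site, were searched on both strands. Overlapping matches were kept only in the bases printed below. They occurred in 16 of the 37 promoters (43.2%), against 618 of 27457 promoters in the table (2.25%) and 427 of 11733 promoters of genes on the array (3.64%). The letters CCAAT, bound by NF-Y, occurred on either strand in 62.2% of the 37, against 37.7% of all promoters. The letters TTTGAA, the CHR element known from mitotic genes, occurred in 3 of the 37 (8.11%). They occurred in 18.1% of all promoters and in 12.3% of promoters of genes on the array. The 60 bases before the start are printed for 6 genes with an E2F match there and for 2 without a match in the whole window, Tk1 and Dut, which later results turn on. All are written 5′ to 3′ on the gene's strand, and capitals mark the E2F letters.
Mcm2, chr4:122918095-122918154, minus strand: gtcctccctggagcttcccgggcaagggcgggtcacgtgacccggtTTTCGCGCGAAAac
Mcm5, chr19:13488753-13488812, plus strand: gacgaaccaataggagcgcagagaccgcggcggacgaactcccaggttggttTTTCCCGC
Mcm7, chr12:22163179-22163238, minus strand: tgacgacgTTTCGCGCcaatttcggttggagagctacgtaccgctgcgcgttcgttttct
Gins1, chr3:160184860-160184919, plus strand: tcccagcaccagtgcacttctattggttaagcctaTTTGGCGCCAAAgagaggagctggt
Gins3, chr19:9434680-9434739, minus strand: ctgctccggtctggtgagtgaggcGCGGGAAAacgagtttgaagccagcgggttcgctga
Tyms, chr9:120776084-120776143, minus strand: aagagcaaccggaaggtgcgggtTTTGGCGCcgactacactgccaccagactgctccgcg
Tk1, chr10:103544778-103544837, minus strand: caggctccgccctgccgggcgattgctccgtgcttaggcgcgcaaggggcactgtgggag
Dut, chr3:132952370-132952429, plus strand: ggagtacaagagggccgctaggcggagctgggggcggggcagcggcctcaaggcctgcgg
In Mcm2 and Gins1 matches on both strands overlap, and in Mcm7 a CCAAT shares a base with the E2F match. No match says only that these letters are not in this window.

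The labelled cell type was set against marker lists. Of 11 granulosa markers measured, Inhba, Inhbb, Fst, Inha, Foxl2 and Gata4 had mean log2 intensities of 10.3 to 13.2, and Nr5a2 (9.59), Amhr2 (8.01), Nr5a1 (8.0), Amh (7.29) and Cyp19a1 (6.99) lay lower. Markers of theca and stroma were measured too, with Nr2f2 at 11.2 and Col3a1 at 9.79, and Cyp17a1 at 5.15. The 8 leukocyte markers ran from 4.92 (Csf1r) to 7.48 (Laptm5), with Ptprc at 5.31. Endothelial markers, 7 in all, ran from 4.86 (Tie1) to 8.88 (Kdr), with Pecam1 at 5.61. Oocyte markers, 5 in all, ran from 5.0 (Bmp15) to 7.91 (Zp2). Levels of different probe sets are not on 1 scale, so they do not give the share of any cell type. Correlations between arrays of a group ran from 0.95 to 0.994. The number 3 arrays stood apart in the ratio of the 3′ to the 5′ Gapdh control probe set. On the log2 scale the 3′ one exceeded the 5′ one by 0.767 to 1.07 in these arrays. In numbers 1 and 2 it did so by 1.61 to 2.4, and group means were 1.49 to 1.86. Whether this came from the RNA or its processing was not tested. Array number 2 of FSH at 0 µM and number 2 of cAMP at 0 µM went against their labels. Cyp19a1, the aromatase gene, had log2 intensities of 11.5, 7.48 and 11.5 in the FSH group and 7.62, 11.0 and 6.46 in the cAMP group. For the replication genes, comparisons with these groups were therefore also run without both arrays. The value is given where it changed a call or moved a count or median by over 1.5 times. Markers, the other gene lists and the split by promoter letters were not read in that run, so they carry no such check. For the same reason the 10 µM dose was compared with 1 µM as well as with 0 µM.

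Over the 41 genes, replication transcripts were highest in cells given cAMP with 1 µM HPTE and lowest in cells given cAMP with 10 µM HPTE. The level is the mean over the 41 genes of each gene's log2 intensity minus its mean over all 36 arrays. It was 0.24, 0.16 and 0.21 in the 3 basal arrays without HPTE and −0.23, −0.35 and −0.51 at 10 µM, with no overlap. With FSH it was −0.15, 0.28 and −0.03 without HPTE and −0.14, −0.46 and −0.28 at 10 µM, and these groups overlapped. With cAMP it was 0.1, −0.05 and −0.16 without HPTE, 0.49, 0.36 and 0.42 at 1 µM, −0.15, 0.17 and 0.33 at 5 µM, and −0.34, −0.66 and −0.45 at 10 µM. The 3 arrays of cAMP at 1 µM lay above the other 33 arrays. In the order of group means, cAMP with 1 µM (0.42 ± 0.06, SD, n = 3) was followed by basal with 1 µM (0.21 ± 0.21) and basal without HPTE (0.2 ± 0.04), and the last places were taken by FSH (−0.3 ± 0.16), basal (−0.36 ± 0.14) and cAMP (−0.48 ± 0.17), all with 10 µM. The groups between overlapped their neighbours, and the 3 groups at 10 µM overlapped each other. Gene by gene, 30 of 41 had their highest group mean in cAMP with 1 µM, and 25, 9 and 4 of 41 had their lowest in cAMP, basal and FSH cells with 10 µM.

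**Figure D1:**
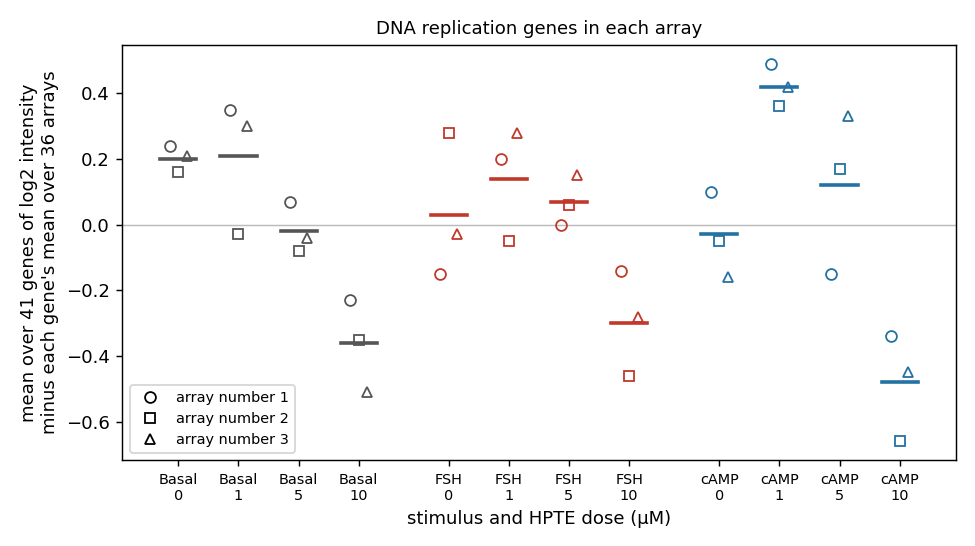
Mean over 41 DNA replication genes of log2 intensity minus each gene's mean over 36 arrays (vertical axis), for each of the 36 arrays by stimulus and HPTE dose in µM (horizontal axis); symbols mark array numbers 1, 2 and 3 and bars the group means. The 3 arrays of cAMP with 1 µM HPTE sit between 0.36 and 0.49, above all others, and every array at 10 µM lies below 0.

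In basal cells, 4 of the 41 genes fell at 10 against 0 µM HPTE: Tk1, the thymidine kinase of the salvage route, Pole2, a subunit of the leading strand polymerase, Mcm5, a subunit of the replicative helicase, and Uhrf1, which binds hemimethylated DNA behind the fork. Tk1 had log2 intensities of 8.89, 8.5 and 8.7 without HPTE and 7.87, 7.44 and 6.86 with 10 µM. It fell by 1.30 ± 0.197 (SE; adjusted p = 0.000315, limma with Benjamini-Hochberg adjustment over all probe sets), a 2.47-fold change. Pole2 read 8.19, 7.76 and 8.09 without and 7.1, 6.98 and 6.45 with HPTE, a log2 difference of −1.17 ± 0.248 (adjusted p = 0.0128). For both genes every treated array lay below every untreated one.

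Mcm5 read 8.95, 8.56 and 8.19 in untreated basal arrays and 7.79, 7.77 and 6.88 at 10 µM, a log2 difference of −1.09 ± 0.262 (adjusted p = 0.0345). Uhrf1 read 8.45, 8.27 and 9.04 against 7.43, 7.48 and 7.69, a difference of −1.05 ± 0.248 (adjusted p = 0.0288). Neither overlapped. None of the 41 rose, and over all probe sets 1.02% were called in either direction and 0.602% as lower. The median difference of the 41 was −0.57, 39 of 41 differences were negative, and the 3 treated arrays lay below the 3 untreated ones for 20 of 41 genes, against 4.76% of all probe sets. With the array number as a block, 13 were called lower: Gmnn, Mcm3, Mcm4, Cdc45, Prim1, Rpa1, Rpa3, Rrm1 and Dut joined the 4. The count was 1 without array number 1 of the untreated or number 3 of the treated group, and 2 without number 3 of the untreated group; Tk1 was called in all 6 such fits. It was also 1 with numbers 1 and 2 alone.

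**Figure D2:**
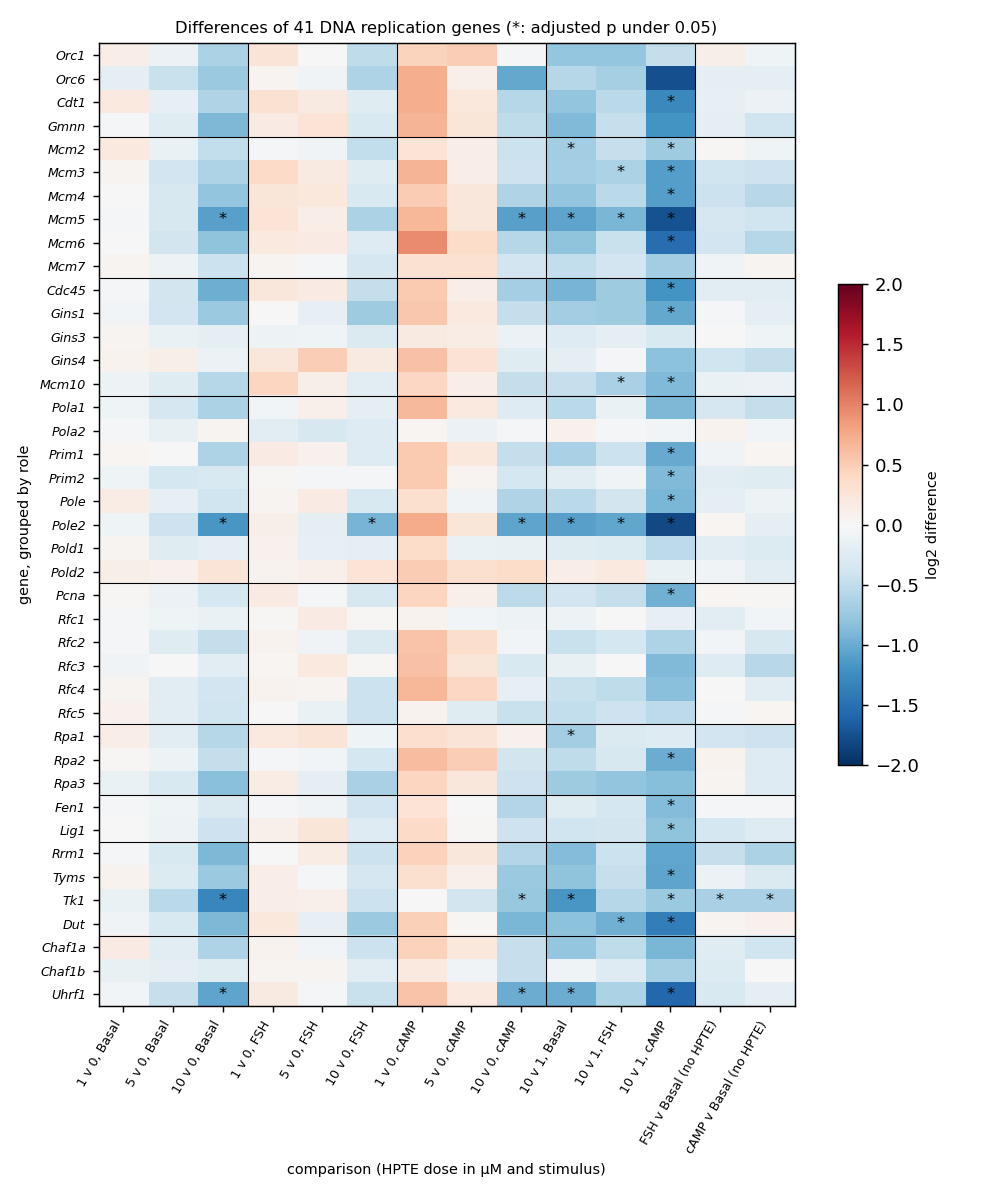
Log2 differences of the 41 genes (rows, grouped by role in the order licensing, MCM, helicase activation, polymerases, clamp and loader, RPA, Okazaki fragments, nucleotide supply, chromatin) in 14 comparisons (columns; HPTE doses in µM); blue is lower and red higher in the first-named group, and an asterisk marks an adjusted p under 0.05. Blue fills the columns at 10 µM, most of all 10 against 1 µM with cAMP, and the column of 1 against 0 µM with cAMP is red without an asterisk.

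With FSH, Pole2 was the only one of the 41 called at 10 against 0 µM. Of all probe sets 8.45% were called, 4.51% as higher and 3.95% as lower, so this count is not above the background. Pole2 read 7.87, 8.21 and 8.09 without HPTE and 7.38, 6.99 and 7.03 with 10 µM, and the arrays did not overlap. The log2 difference was −0.93 ± 0.248 (adjusted p = 0.015). The median of the 41 was −0.309, with 37 differences below 0, and 7 of 41 genes had 3 arrays all lower, against 10.4% of all probe sets. Within array numbers the picture was uneven: 18 of 41 genes were lower at 10 µM in number 1, 41 in number 2 and 36 in number 3. Number 2 of the untreated group is an array that went against its label, and without both such arrays no gene was called, Pole2 stood at −0.85 (adjusted p = 0.0687) and the median was −0.153. The count was also 0 without number 3 at 0 µM or without number 2 or 3 at 10 µM, 2 without number 1 at 0 µM and 3 without number 1 at 10 µM. With the block, 7 were called lower: Mcm2, Mcm5, Cdc45, Pole2, Rpa3, Fen1 and Dut. It was 3 after quantile normalization, and 2 with the filter at 6 or with the mean of a gene's probe sets.

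With cAMP, 4 of 41 genes fell at 10 against 0 µM and none rose, where 1.69% of all probe sets were called and 0.486% as lower. Mcm5 read 8.53, 8.21 and 7.77 without HPTE and 7.6, 6.76 and 6.91 with it, a difference of −1.08 ± 0.262 (adjusted p = 0.0248). Uhrf1 read 8.52, 7.92 and 8.79 against 7.47, 7.17 and 7.61, a difference of −0.99 ± 0.248 (adjusted p = 0.0308). Pole2 differed by −1.05 (adjusted p = 0.0205) and Tk1 by −0.75 (adjusted p = 0.0432). In all of them the 3 treated arrays were below the 3 untreated. The median of the 41 was −0.458, 39 were negative, and 17 of 41 did not overlap, against 5.19% of all probe sets. Without the arrays that went against their labels Mcm5 (−1.06, adjusted p = 0.0444) and Uhrf1 (−1.24, adjusted p = 0.00488) were called again and Pole2 and Tk1 were not (adjusted p = 0.0669 and 0.0665), while Dut was called at −1.12 (adjusted p = 0.0383). The count was 0 without number 2 at 10 µM, 1 without number 1 at 0 µM or number 3 at 10 µM, and 2 without number 2 at 0 µM, without number 1 at 10 µM, or with numbers 1 and 2 alone. With the block 12 were lower: Orc6, Mcm4, Mcm5, Cdc45, Pole, Pole2, Pcna, Fen1, Tyms, Tk1, Dut and Uhrf1.

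The widest difference between doses was that of 10 and 1 µM with cAMP, where 21 of 41 genes fell and none rose. Over all probe sets 2.97% were called in either direction and 1.52% as lower. All 41 differences were negative, with a median of −0.886, and 30 of 41 genes had 3 arrays all lower, against 10.4% of all probe sets. The 21 took in 1 of 4 licensing genes, 5 of 6 MCM subunits, 3 of 5 helicase partners, 4 of 8 primase and polymerase subunits, 1 of 6 clamp and loader genes, 1 of 3 RPA subunits, both Okazaki fragment genes, 3 of 4 nucleotide genes and 1 of 3 chromatin genes. The count was 12 without number 2 at 10 µM and 13 without number 1 at 1 µM, and Mcm3, Mcm4, Mcm5, Mcm10, Pole, Pole2, Tyms, Dut and Uhrf1 were called in all 6 such fits. With the block the count was 32. Beside this, the summed intensity of 11 granulosa markers was 42490 to 43622 at 1 µM and 31230 to 37102 at 10 µM, which do not overlap. Of the 11, 0 were called by limma and 2 had an unadjusted limma p under 0.05, as had 3316 of 31042 probe sets. The sums of theca and stroma, leukocyte, endothelial and oocyte markers overlapped between these groups, and of all these lists Col1a1 fell (−1.79) and Col3a1 rose (by 1.11). Their part in the result was not tested.

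Among the licensing genes, Cdt1, which loads the MCM ring, read 8.85, 8.81 and 8.36 with cAMP and 1 µM HPTE and 7.51, 7.54 and 7.09 with 10 µM. The groups were well apart, and Cdt1 fell by 1.29 ± 0.281 (adjusted p = 0.00617). Gmnn, which codes for geminin, the inhibitor of Cdt1, read 8.74, 8.86 and 9.93 against 7.74, 7.7 and 8.52. The number 3 array was the highest of each group, and the difference of −1.19 ± 0.529 was not called (adjusted p = 0.377; 8.34e-05 with the block, SE 0.192). Orc6, a subunit of the origin recognition complex, behaved alike in the same comparison, at −1.75 ± 0.615 (adjusted p = 0.162; 3.52e-05 with the block). Orc1, the largest subunit of that complex, differed by −0.48 (adjusted p = 0.581).

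Of the 6 subunits of the MCM ring, which unwinds DNA, 5 fell in that comparison. Mcm5 read 9.03, 8.88 and 8.58 at 1 µM and 7.6, 6.76 and 6.91 at 10 µM, and Mcm6 read 8.92, 8.56 and 9.23 against 7.36, 7.1 and 7.7. Neither overlapped, and they fell by 1.74 ± 0.262 (adjusted p = 9.07e-05) and 1.52 ± 0.333 (adjusted p = 0.00687). Mcm3 fell by 1.10 (adjusted p = 0.000185), Mcm4 by 1.11 (adjusted p = 0.0023) and Mcm2 by 0.70 (adjusted p = 0.00853). Mcm7 read 9.44, 9.16 and 9.58 against 8.82, 8.13 and 9.17, so that the highest array at 10 µM reached the lowest at 1 µM. Its difference of −0.69 was not called (adjusted p = 0.122; 0.0147 with the block).

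Of the genes that turn the loaded ring into an active helicase, Cdc45 fell by 1.20 ± 0.275 (adjusted p = 0.00964) between 1 and 10 µM with cAMP, Gins1, a subunit of the GINS complex, by 1.02 (adjusted p = 0.0225) and Mcm10, an activator of the helicase, by 0.88 (adjusted p = 0.00304). Cdc45 read 9.33, 9.11 and 8.8 at 1 µM and 8.01, 7.9 and 7.72 at 10 µM. Gins3 moved least of them: it read 6.17, 6.25 and 6.08 against 5.94, 5.81 and 5.86, a difference of −0.30 (adjusted p = 0.258). Gins4 differed by −0.82 (adjusted p = 0.0576; 0.000348 with the block).

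Among primase and polymerase genes, Pole2 gave the largest difference of all 41 genes in this comparison. It read 8.52, 8.63 and 8.56 at 1 µM and 7.23, 6.12 and 6.97 at 10 µM and fell by 1.80 ± 0.248, 3.47-fold (adjusted p = 2.61e-05). Pole, the catalytic subunit of the same enzyme, fell by 0.92 (adjusted p = 0.00125), and the primase genes Prim1 and Prim2 by 1.00 (adjusted p = 0.031) and 0.88 (adjusted p = 0.013). The polymerase alpha gene Pola1 differed by −0.90 (adjusted p = 0.0561; 0.00136 with the block). Its partner Pola2 read 5.2, 5.24 and 5.35 against 5.27, 5.15 and 5.17, a difference of −0.06 (adjusted p = 0.979). Of the lagging strand polymerase delta, Pold1 differed by −0.52 (adjusted p = 0.209) and Pold2 by −0.14 (adjusted p = 0.984).

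Pcna, the sliding clamp, read 11.39, 11.36 and 11.86 at 1 µM and 10.5, 10.23 and 10.99 at 10 µM with cAMP, and fell by 0.96 ± 0.22 (adjusted p = 0.0097). The 5 clamp loader genes were not called: Rfc2, Rfc3 and Rfc4 differed by −0.62, −0.89 and −0.83 and were called lower with the block, Rfc5 differed by −0.52 and Rfc1 by −0.16. Rpa2, of the complex that coats single strands, fell by 0.99 (adjusted p = 0.0448), while Rpa3 differed by −0.85 (adjusted p = 0.351; 0.000765 with the block) and Rpa1 by −0.25 (adjusted p = 0.666). Fen1, the flap nuclease of Okazaki fragments, and Lig1, the ligase that joins them, fell by 0.87 (adjusted p = 0.00615) and 0.80 (adjusted p = 0.026).

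Among the genes of nucleotide supply, Dut, which removes dUTP, read 11.19, 11.2 and 11.71 at 1 µM and 9.95, 9.77 and 10.23 at 10 µM with cAMP. The groups did not overlap, and Dut fell by 1.38 ± 0.268 (adjusted p = 0.00209). Tyms, which makes dTMP, fell by 1.05 (adjusted p = 0.00399) and Tk1 by 0.75 (adjusted p = 0.0305). Rrm1, the large subunit of ribonucleotide reductase, differed by −1.04 ± 0.409 (adjusted p = 0.261; 0.00101 with the block). Uhrf1 fell by 1.57 ± 0.248 (adjusted p = 0.000175), and the chromatin assembly genes Chaf1a and Chaf1b differed by −0.92 (adjusted p = 0.483; 0.00631 with the block) and −0.66 (adjusted p = 0.196).

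Between 10 and 1 µM in the other cells, fewer genes fell and none rose. In basal cells 6 of 41 were called lower, where 0.876% of all probe sets were called: Tk1 (−1.17 ± 0.197, adjusted p = 0.00135), Pole2 (−1.08), Mcm5 (−1.06), Uhrf1 (−0.998), Rpa1 (−0.70) and Mcm2 (−0.69). The median of the 41 was −0.573. Leaving out number 1 or 3 at 1 µM, or using numbers 1 and 2 alone, left 1, number 3 at 10 µM left 2, and number 1 or 2 at 10 µM left 3; the block gave 17. With FSH 5 of 41 were lower, where 3.91% of all probe sets were called: Pole2 (−1.04 ± 0.248, adjusted p = 0.0114), Dut (−0.96), Mcm5 (−0.91), Mcm10 (−0.64) and Mcm3 (−0.63), at a median of −0.453. This count was 0 without number 1 or 3 at 1 µM, without number 2 at 10 µM or with numbers 1 and 2 alone, 1 without number 3 at 10 µM, and 11 with the block. The comparisons with 0 and with 1 µM share their 10 µM arrays.

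**Figure D3:**
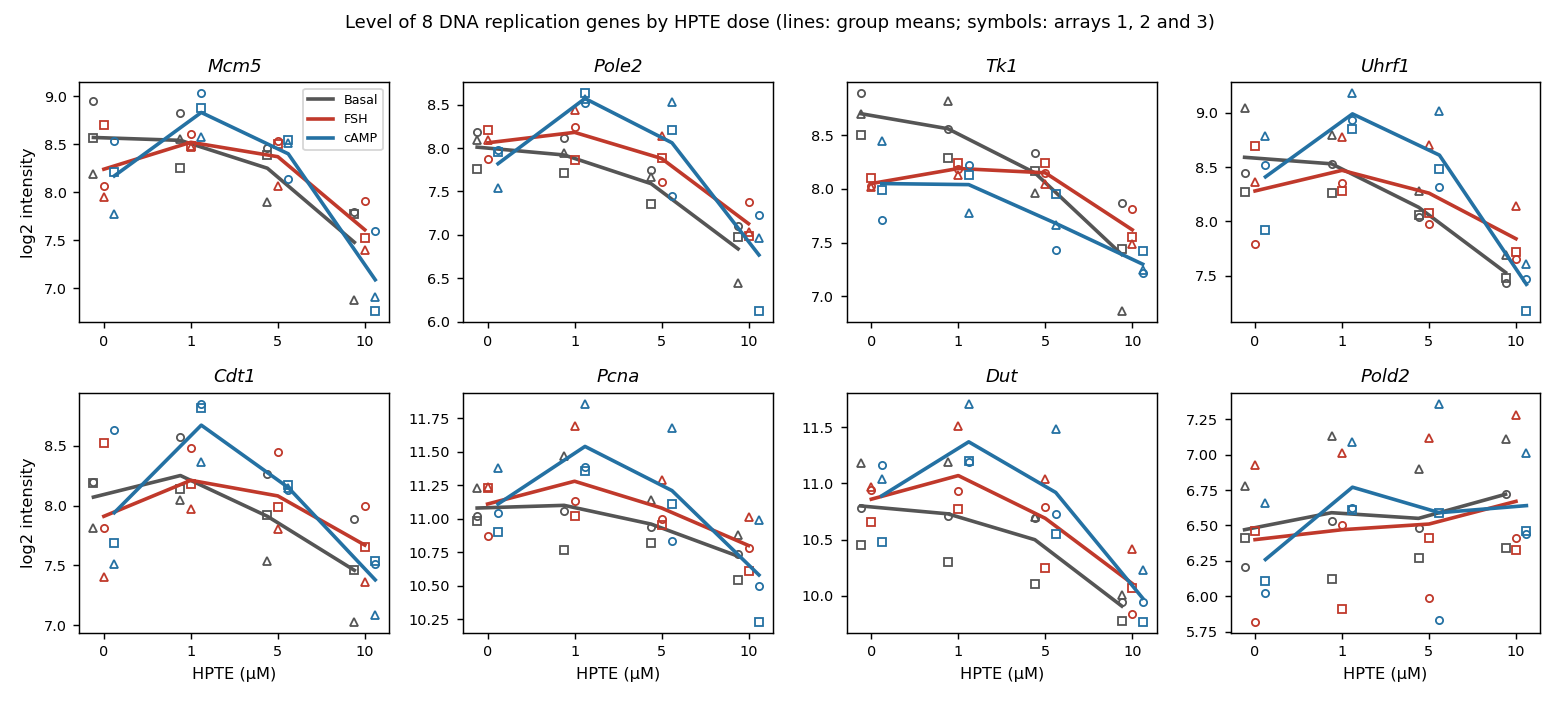
Log2 intensity (vertical axis, its own range per gene) of Mcm5, Pole2, Tk1, Uhrf1, Cdt1, Pcna, Dut and Pold2 at 0, 1, 5 and 10 µM HPTE (horizontal axis, doses equally spaced, stimuli drawn side by side); symbols are arrays number 1, 2 and 3 and lines join group means of basal, FSH and cAMP cells. In cAMP cells Pole2 goes from 8.52, 8.63 and 8.56 at 1 µM to 7.23, 6.12 and 6.97 at 10 µM, and Pold2 has no such step.

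At 5 µM no replication gene was called against 0 µM under any stimulus. In basal cells 0.0129% of all probe sets were called. An unadjusted limma p under 0.05 was found for 2 of 41 members and for 527 of 31042 probe sets. The members' median was −0.223 and 38 of 41 differences were negative, 26 of them in all 3 array numbers. Tk1 read 8.33, 8.17 and 7.96 at 5 µM, below its untreated arrays, a difference of −0.54. With FSH 6.54% of all probe sets were called, 3.45% as higher and 3.08% as lower, and none of the 41 members. There 1 member and 4813 probe sets had an unadjusted limma p under 0.05. The median was 0.0485, and 0.178 without the arrays that went against their labels; with the block Gins4 was higher (0.49, adjusted p = 0.0258). With cAMP 0.00322% were called. There 0 members and 2624 probe sets had an unadjusted limma p under 0.05, and the members' median was 0.196. In the cAMP cells number 1 went the other way from numbers 2 and 3: 37 of 41 genes were lower at 5 µM in number 1, and 34 were higher in numbers 2 and 3 each.

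At 1 µM no member was called either, and with cAMP the values were nearly all above those without HPTE. There 40 of 41 differences were positive, with a median of 0.474, and 20 of 41 genes had 3 arrays all higher, against 3.02% of all probe sets. No probe set of the array was called (0%), and 14 members had an unadjusted limma p under 0.05, as had 743 of 31042 probe sets. Mcm6 read 8.92, 8.56 and 9.23 with 1 µM and 8.2, 7.72 and 7.97 without, a difference of 0.94 ± 0.333 (adjusted p = 1; 0.285 with the block). Mcm3 read 7.94, 7.78 and 7.74 against 7.25, 7.1 and 7.07, with no overlap, and a difference of 0.68 (adjusted p = 0.726; 0.182 with the block). The median was 0.445 without the arrays that went against their labels. In basal cells 0% of probe sets and 0 members were called. There 0 members and 159 probe sets had an unadjusted limma p under 0.05, and the members' median was −0.014. With FSH 0.00644% and 0 members were called, and 2 members and 896 probe sets had an unadjusted limma p under 0.05. The members' median was 0.0874, or 0.235 without the arrays that went against their labels.

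In cells without HPTE replication genes were called no more often than all probe sets. No member was called higher with either stimulus, and only Tk1 was called lower. Over all probe sets 8.06% were called for FSH against basal (3.88% higher, 4.18% lower) and 7.18% for cAMP against basal (2.69% higher, 4.49% lower), and 1 of 41 members was called in each. Tk1 read 8.89, 8.5 and 8.7 in basal cells, 8.03, 8.1 and 8.02 with FSH, and 7.71, 7.99 and 8.45 with cAMP. All stimulated arrays were below all basal ones, with differences of −0.65 ± 0.197 for FSH (adjusted p = 0.0375) and −0.65 for cAMP (adjusted p = 0.0405). Medians of the 41 were −0.179 and −0.209. The FSH count was 0 without number 1 or 3 of either group and with numbers 1 and 2 alone. Tk1 itself was also lost without number 2 of FSH cells. The cAMP count was 0 without number 1 or 3 of basal cells, without number 1 or 2 of cAMP cells, or after quantile normalization. With 1 array left out, Tk1 was still called in 1 of 6 fits for FSH and in 2 of 6 for cAMP. With both arrays that went against their labels left out of the fit, Tk1 was not called for FSH (−0.67, adjusted p = 0.0723) or cAMP (−0.62, adjusted p = 0.111). That fit called Mcm3 for FSH (−0.59, adjusted p = 0.0429) and 0 members for cAMP. The block added Mcm4 for FSH (−0.43, adjusted p = 0.0139), and Mcm4, Gins4 and Rrm1 for cAMP (−0.55, −0.48 and −0.63), all lower.

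With HPTE present, no member was called between stimulated and basal cells. For FSH against basal at 1, 5 and 10 µM, 3.03% (1.39% as higher), 0.00322% and 0% of all probe sets were called and none of the 41 members. Of the members 2, 0 and 0 had an unadjusted limma p under 0.05, as had 3121, 424 and 497 of 31042 probe sets. For cAMP against basal at these doses 8.71% (4.24% higher, 4.47% lower), 8.08% (3.99% higher, 4.09% lower) and 6.18% (2.73% higher) were called and again 0 members. Here 4, 1 and 1 members had an unadjusted limma p under 0.05, as had 5387, 5392 and 4433 probe sets. Medians of the members were 0.28, 0.144 and −0.0992. With the block Dut was higher with cAMP at 1 µM (0.63, adjusted p = 0.00199), as were Prim1 (0.53), Pcna (0.44) and Cdc45 (0.36). Dut and Uhrf1 were higher at 5 µM (0.42 and 0.48), and Gins4 was lower at 10 µM (−0.61, adjusted p = 0.00502). Leaving out number 2 of FSH at 1 µM called 1 member for FSH at that dose, and leaving out number 3 of basal at 10 µM, or using numbers 1 and 2 alone, called 1 for cAMP at 10 µM; with the mean of a gene's probe sets 1 was called for cAMP at 1 µM.

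FSH and cAMP cells were also compared directly. At 0, 1, 5 and 10 µM, 0%, 0.409%, 5.59% and 4.76% of all probe sets were called and 0 of the 41 members. An unadjusted limma p under 0.05 was found for 0, 3, 1 and 2 members and for 1002, 2073, 4327 and 3867 of 31042 probe sets. At 1 µM the median was −0.288 with 38 of 41 lower with FSH, and at 10 µM it was 0.197. With the block Mcm4 (0.41, adjusted p = 0.0275) and Gins4 (0.50, adjusted p = 0.0244) were higher with FSH at 10 µM.

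Whether HPTE acted differently under a stimulus was tested on the difference itself. For 10 against 0 µM in FSH minus basal cells 2.17% of all probe sets were called and in cAMP minus basal cells 0.129%, and 0 of the 41 members in both. An unadjusted limma p under 0.05 was found for 2 and 1 members and for 3023 and 1162 of 31042 probe sets. Medians of the differences in effect were 0.193 and 0.0827. Tk1 had the lowest adjusted p for FSH, 0.118, and 0.0506 with the block, and 1 member was called without number 1 of basal at 10 µM. Interactions at 1 and 5 µM and between cAMP and FSH, added after the data were seen, also called 0 members with and without the block. For cAMP minus basal at 1 µM the median was 0.508, 40 of 41 were positive, and 4 members, or 20 with the block, had an unadjusted p under 0.05. Calls made under 1 stimulus and not under another are thus not shown to differ between stimuli.

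Most of the 41 genes followed a common profile over the 12 groups. Pearson's r between a gene's group means and the mean of the other 40 was 0.92 in the median, and at least 0.9 for 27 genes. It was 0.985 for Mcm5, 0.973 for Mcm6, 0.972 for Cdc45 and 0.971 for Uhrf1. These correlations describe 12 groups from the same 36 arrays, which share their RNA and their normalization. Pold2 (−0.156) and Pola2 (0.011) did not follow the rest, and Rfc1 (0.566) and Gins4 (0.607) did so less.

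Pold2, the small subunit of polymerase delta, read 6.21, 6.41 and 6.78 in untreated basal cells and 6.72, 6.34 and 7.11 with 10 µM. The groups overlapped, and its differences at 10 against 0 µM were 0.26, 0.27 and 0.37 in basal, FSH and cAMP cells, none called (adjusted p = 1, 0.886 and 0.937). Rfc1, the large subunit of the clamp loader, differed by −0.14, 0.03 and −0.10 in the same comparisons. Pola2 lay at a mean log2 under the filter of 6 and differed by 0.05, −0.25 and −0.03.

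Tk1 and Rrm1 had their highest group mean in untreated basal cells and their lowest in cAMP with 10 µM, while 30 of the 41 genes were highest in cAMP with 1 µM. Between cAMP with 1 µM and without HPTE Tk1 differed by −0.01 on the probe set used, the only negative value among the 41. Tk1 has other probe sets, which differed by −1.03 and −0.79 at 10 against 0 µM in basal cells. With cAMP these differed by −0.394 and −0.282 at 10 against 0 µM, and by −0.792 and −0.894 at 10 against 1 µM. Both thus read higher with cAMP at 1 µM than without HPTE, unlike the probe set used. Cdc45 has 3 others: in basal cells at 10 against 0 µM they differed by −1.08, −0.304 and 0.0102, the last at a mean log2 of 5.62.

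Other genes of the pathway were counted from lists written by role. Of 35 other replication genes, 3 fell in basal cells at 10 against 0 µM, where 0.602% of all probe sets were called lower, with a median of −0.406. They were Dscc1, of an alternative clamp loader (−1.12 ± 0.254, adjusted p = 0.0223), the histone chaperone gene Asf1b (−1.10, adjusted p = 0.00874) and the nuclease gene Exo1 (−0.93, adjusted p = 0.0223). With FSH 3 of 35 fell at a median of −0.266, where 8.45% of all probe sets were called and 3.95% as lower, so the count is near the background. They were Atad5, which unloads Pcna (−0.98), the topoisomerase gene Top1 (−0.83) and the histone chaperone gene Asf1a (−0.67). With cAMP 0 were called at a median of −0.187, and 7 had an unadjusted limma p under 0.05, as had 2907 of 31042 probe sets. At 10 against 1 µM with cAMP 8 of 35 fell, at a median of −0.418, where 1.52% of all probe sets were called lower.

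Of 22 regulators of the G1 to S transition, 1 fell in basal cells at 10 against 0 µM, 4 with FSH and 2 with cAMP, where 1 rose. Of all probe sets 0.602%, 3.95% and 0.486% were called lower, and with cAMP 1.2% were called higher. The median differences were −0.196, −0.135 and −0.163. The member lowered in all of them was E2f8, an atypical E2F that represses other E2F targets: −1.28 ± 0.2 in basal (adjusted p = 0.000527), −1.03 in FSH (adjusted p = 0.000731) and −0.95 in cAMP cells (adjusted p = 0.00729). E2f7, its relative, fell by 1.12 with FSH (adjusted p = 0.0186) and 1.16 with cAMP (adjusted p = 0.0489). Cdkn1b, which codes for the cyclin-dependent kinase inhibitor p27, rose by 0.38 ± 0.089 with cAMP (adjusted p = 0.0168). 

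Mitosis genes had lower medians than the replication genes in these comparisons. Of 28, 18 fell in basal cells at 10 against 0 µM with a median of −1.13, 12 with FSH at −0.725 and 15 with cAMP at −1.04; none rose. Of all probe sets 0.602%, 3.95% and 0.486% were called lower in these comparisons. At 10 against 1 µM with cAMP 25 of 28 fell at a median of −1.65, where 1.52% of all probe sets were called lower. Among the largest were Ccna2, the cyclin of S and G2 phase (−1.73 in basal cells, adjusted p = 0.0232), and Top2a, which untangles sister chromatids (−1.28 with FSH, adjusted p = 0.000423, and −1.65 with cAMP, adjusted p = 8.13e-05). Medians over all 31042 probe sets lay near 0. Counts and medians describe the lists, and no test compared the lists with each other. Lists other than the replication genes were not read without the arrays that went against their labels.

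**Figure D4:**
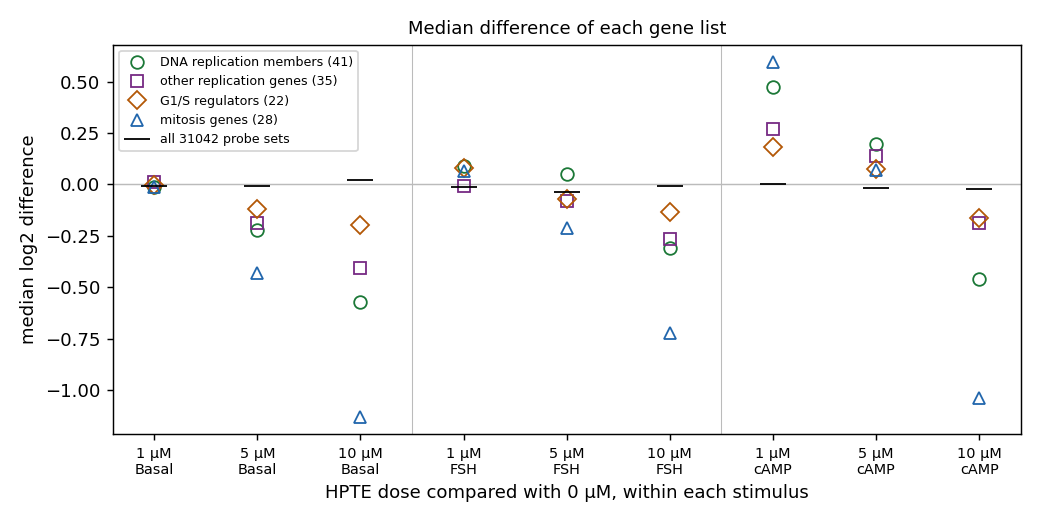
Median log2 difference against 0 µM HPTE (vertical axis) of 41 DNA replication members, 35 other replication genes, 22 G1/S regulators and 28 mitosis genes at 1, 5 and 10 µM in basal, FSH and cAMP cells (horizontal axis); black bars give the median of all 31042 probe sets. At 10 µM the mitosis genes reach −1.13, −0.725 and −1.04 and the replication members −0.57, −0.309 and −0.458.

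The replication genes were also set side by side by their promoter letters. In basal cells at 10 against 0 µM the median difference was −0.616 for the 16 genes with an E2F match and −0.477 for the 21 without, with 2 genes called in each. With FSH the medians were −0.305 and −0.316, and with cAMP −0.454 and −0.463. Tk1 and Dut, whose printed promoters hold no match, differed by −1.30 and −0.89 in basal cells at 10 against 0 µM, and Gins3, whose promoter holds a match, differed by −0.20. In the mitosis list 1 of 24 promoters (4.17%) held the E2F letters and 16 (66.7%) the CHR letters, and among other replication genes 15 of 31 (48.4%) held the E2F letters.

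RNA amounts in whole cultures do not tell fewer cycling cells from less RNA per cell. Beside the lower values at 10 µM stood these other measures. Of 11 granulosa markers 8 fell with FSH at 10 against 0 µM, among them Nr5a1 (−2.71) and Cyp19a1 (−4.77), and 0 were called in basal or cAMP cells. Of all probe sets 8.45% were called with FSH (3.95% lower), 1.02% in basal (0.602% lower) and 1.69% in cAMP cells (0.486% lower). The summed intensity of the 11 was lower without overlap in basal cells, at 15178 to 16548 without HPTE and 13028 to 14596 at 10 µM, and with FSH, at 32867 to 50081 against 17702 to 23371. With cAMP it was 32925 to 42635 against 31230 to 37102, which overlap. Against 1 µM the sums at 10 µM did not overlap either, with 15905 to 18189 at 1 µM in basal and 35570 to 48943 in FSH cells. A sum weighs the strongest genes most, so the level of a list, computed as for the replication genes, was set beside it. For granulosa markers in basal cells it was −0.69, −0.72 and −0.81 without HPTE and −0.95, −1.11 and −1.26 at 10 µM, also apart. The summed intensity of 8 theca and stroma markers was 5069 to 5998 in untreated basal arrays and 3911 to 4764 at 10 µM, which do not overlap. In FSH arrays it was 3889 to 5982 against 4033 to 5225, and in cAMP arrays 3293 to 5671 against 3361 to 4396. The level of this list in basal arrays was 0.37, 0.17 and 0.07 without HPTE and 0.25, −0.02 and −0.41 at 10 µM, which overlap. In that list Col1a1 fell in basal (−1.57) and cAMP cells (−1.93), Cyp17a1 fell with FSH (−1.32), and Col3a1 rose with FSH (by 1.5) and cAMP (by 1.17). Sums of 8 leukocyte markers were 459 to 1019 without HPTE and 429 to 916 at 10 µM in basal arrays, 347 to 744 and 447 to 1106 with FSH, and 400 to 551 and 367 to 650 with cAMP, all overlapping. Sums of 7 endothelial markers were higher without overlap in basal arrays, at 562 to 686 and 702 to 979, and overlapped with FSH (736 to 851 and 712 to 997) and cAMP (588 to 821 and 705 to 733). As levels the basal endothelial values overlapped, at 0.01, −0.22 and −0.28 against 0.31, 0.04 and −0.21. Sums of 5 oocyte markers overlapped in basal arrays (590 to 618 and 326 to 741) and with cAMP (428 to 649 and 548 to 914), and were higher without overlap with FSH, at 362 to 478 and 485 to 780. As levels the oocyte values with FSH touched, at −0.19, −0.57 and −0.16 against 0.3, −0.16 and 0.17. No marker of these 3 lists was called in the comparisons of 10 with 0 µM. The Gapdh ratio was 1.75 in untreated and 1.59 in treated basal arrays, 1.66 and 1.49 with FSH, and 1.64 and 1.53 with cAMP. The part of these measures in the lower replication values was not tested.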

How the data were processed

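Per the labels, the RNA of each sample (40 ng) was amplified with NuGEN Ovation kits and read on 1 Affymetrix Rat Genome 230 2.0 array. The authors deposited a linear intensity for each probe set, summarised with RMA per the submitters' processing notes; the series' design text names ArrayAssist, with versions not given in the sources used here. Array medians ran from 65.8 to 73.7. Here log2 was taken of the deposited intensities, 57 control probe sets were left out, and limma 3.58.1 in R 4.3.3 fitted 12 group means (lmFit, contrasts.fit, eBayes; 24 residual df). In 26 comparisons p-values were adjusted by Benjamini-Hochberg over 31042 probe sets and probe sets were called at an adjusted p under 0.05, two-sided. The fit was tested on simulated data. Arrays carry no count depth, so their number limits the precision.

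Of the probe sets, 20826 had 1 symbol, 436 several and 9780 none; 20758 were brought to current symbols through the GRCr8 gene list. Members and lists were chosen with earlier results of these data known, so the counts are no independent evidence. Every member may be named; of other lists, those called and among the 4 largest changes of their list, with markers beside them.

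Alternatives were the array number as a block, quantile normalization, a mean log2 of at least 6, the mean of a gene's probe sets, numbers 1 and 2 alone, both arrays that went against their labels left out, and each array left out. The main fit had no block, so its p-values do not use the array numbers as pairs, and only the block alternative does. The arrays went with such pairs. In 23 of 24 comparisons of 2 groups all same-numbered arrays deviated together (r over 0.1), except FSH against cAMP at 0 µM (−0.124). The median r of same-numbered arrays was 0.51. Of 36 arrays 35 correlated best with their own number.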

Additional observations from a re-analysis of the deposited data

How the results depend on the processing

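Of 43 calls of a replication gene in a comparison, none changed direction under any alternative run. The block on array number kept 43, the filter at 6 kept 43, the mean of a gene's probe sets 42, quantile normalization 40 and numbers 1 and 2 alone 18; leaving out both arrays that went against their labels kept 2 of the 7 calls that use them. Counts of members called by limma moved most with the replicate block. At 10 against 0 µM they went to 13 in basal, 7 in FSH and 12 in cAMP cells, at 5 against 0 µM with FSH to 1, and at 10 against 1 µM to 17, 11 and 32. Against basal cells they went to 2 for FSH and 4 for cAMP at 0 µM, and for cAMP to 4, 2 and 1 at 1, 5 and 10 µM; FSH against cAMP at 10 µM went to 2. The pairing changed no other count by more than 1.5 times. FSH at 10 against 0 µM gave 3 after quantile normalization, 2 with the filter, 2 with the mean of probe sets and 0 without the 2 arrays. For cAMP against basal, quantile normalization and leaving out the 2 arrays gave 0 at 0 µM, and the mean of probe sets gave 1 at 1 µM. With numbers 1 and 2 alone the counts were 1 in basal and 2 in cAMP cells at 10 against 0 µM, 1 in basal and 0 in FSH cells at 10 against 1 µM, 0 for FSH against basal at 0 µM and 1 for cAMP against basal at 10 µM, with fewer arrays in the fit.

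Leaving out each replicate in turn gave 1 to 4 in basal, 0 to 3 in FSH and 0 to 3 in cAMP cells at 10 against 0 µM. It gave 1 to 5, 0 to 4 and 12 to 18 at 10 against 1 µM, and 0 to 1 for FSH and for cAMP against basal at 0 µM. It also gave 0 to 1 for FSH against basal at 1 µM, for cAMP against basal at 10 µM and for the FSH interaction at 10 µM, and 0 to 0 elsewhere. Beyond what the fewer arrays explain, the cause of these moves was not tested.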
